A study of Rattus norvegicus with 26 samples.

Results

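The 4 genes described here, out of 32552 features counted in rat liver, were chosen by their colony and host levels: they stood lower in colonies grown from transplanted fetal hepatocytes than in the adult host liver around them, by a large fitted difference with 1 sign in every animal. Because the choice rests on that contrast, their colony and host levels are given as a description, with no test. Their levels before transplantation did not enter the choice and were tested. RNA was sequenced in 26 libraries, namely 4 of adult hepatocytes, 12 of immunopurified fetal hepatocytes in 3 sorts of 4 (labelled LAP+, LAP+/OC2- and LAP+/OC2+, markers the labels do not spell out), and 10 of laser-captured tissue, with 1 colony and 1 host library from each of 5 animals (numbered 242, 243, 246, 248 and 249). The sources used here give no strain, age, sex, marker of donor cells or treatment of the host, and do not say how regions were picked for capture. Developmental stage is labelled fetal or adult only.

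Hepatocytes of the fetal liver are still maturing, and many genes of adult metabolism are switched on only around birth or later, as the liver stops being a site of blood formation. Fetal hepatocytes placed in an adult liver can engraft and grow into colonies within the host tissue. Comparing a colony with the host next to it, in the same animal, therefore sets fetal-derived tissue and adult host tissue side by side in 1 organ. Any share of host cells within a captured colony was not measured here.

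The files name the genes by identifier alone, and the reference table of 47357 genes paired 0 of these identifiers with a symbol, so roles of the genes, pathway lists and cell type markers could not be applied. Sorted cells and captured tissue went into different library kits, and no level was compared between those stages. Library totals ran from 7871347 to 16874438 counts. The share of mitochondrial features was 62.2 ± 17.9% of the counts in LAP+/OC2+ libraries and 7.73 ± 2.05% in adult ones (SD, n = 4 each), with 5.04 ± 0.98% and 4.94 ± 0.70% in the other fetal sorts. That left 1917734 to 5045098 nuclear counts in each LAP+/OC2+ library.

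The genes do not lie together and differ in build. ENSRNOG00000009730 lies on chromosome 2 from 102701903 to 102871257, on the minus strand, and its 2833 nt of exon are spread over a span of 169355 nt. ENSRNOG00000057943 lies on chromosome 7 from 141642777 to 141656477, on the plus strand, with 7 exons that sum to only 639 nt. ENSRNOG00000005175 has 3 exons and 2795 nt on chromosome 6 from 98675326 to 98695988, on the minus strand. ENSRNOG00000007229 is the most compact, with 2 exons and 1111 nt on chromosome 5 from 151776004 to 151779319, on the plus strand. Positions are as deposited, with the genome build not named in any source used here. The median exon length of the 22303 genes tested after transplantation was 1865 nt, so 2 of the 4 were longer and 2 shorter. No other feature in the files overlapped any of the 4.

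All 4 genes were less abundant in the colony than in the host of every animal, as the rule required, with levels given in CPM, a count rescaled to a common library size, here adjusted by the trimmed mean of M-values (TMM) method. Of the 22303 genes tested, 5.68% were likewise lower in all 5 pairs. By the edgeR quasi-likelihood test with the animal as a block, 1.17% (262 genes) passed an adjusted p of 0.05 in either direction and 0.61% in the lower direction. That count ran from 0 without animal 249 (2225 genes at an unadjusted p under 0.05) through 5 without animal 242, 130 without animal 243 and 158 without animal 248 to 2683 without animal 246. In captured tissue, fewer cells of a type and less RNA per cell cannot be told apart.

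ENSRNOG00000009730 had the largest fitted difference of the 4. Host levels were 8.29, 12.8, 7.14, 17.6 and 13.7 CPM in animals 242, 243, 246, 248 and 249, and the colonies of the same animals stood at 1.71, 7.54, 5.64, 10.3 and 4.95 CPM. The groups overlapped, because the colony of animal 248 was above the hosts of animals 242 and 246, and the colony of animal 243 above the host of animal 246. Within animals the colony held from 20.7% of the host level in animal 242 to 79.0% in animal 246. The fitted log2 difference was -1.08 (SE 0.25), a 2.12-fold lower level, and the 5 pairs averaged -1.12 ± 0.76 (SD, n = 5). In animal 246 the difference rested on 80 host and 74 colony counts, and its 95% counting interval of -0.82 to 0.13 covered 0.

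ENSRNOG00000057943, the gene with the shortest exons, stood at 12.1, 9.80, 8.48, 16.5 and 6.89 CPM in the hosts, in the same order of animals. Its colonies had 3.56, 7.38, 3.35, 6.76 and 5.73 CPM. Only the colony of animal 243 exceeded the lowest host, that of animal 249. The fitted log2 difference was -1.001 (SE 0.25), and the pairs averaged -1.01 ± 0.64 (SD, n = 5). Animals 242, 246 and 248 had log2 differences of -1.76, -1.34 and -1.29. Animals 243 and 249 had -0.41 and -0.27, and the counting interval of animal 249, from -0.71 to 0.18, covered 0.

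ENSRNOG00000005175 varied widely between animals. Hosts stood at 11.1, 16.6, 9.20, 17.8 and 11.8 CPM, and colonies at 2.64, 13.1, 7.93, 7.64 and 5.95 CPM. The colony of animal 243 was above 3 of the 5 hosts, and the other 4 colonies were below every host. The fitted log2 difference was -0.93 (SE 0.23), with pairs averaging -0.97 ± 0.75 (SD, n = 5). The colony of animal 242 held 23.8% of its host level and that of animal 246 held 86.2%, where 103 host and 104 colony counts gave a counting interval of -0.62 to 0.19.

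ENSRNOG00000007229 had the smallest fitted difference of the 4, a log2 of -0.89 (SE 0.18). Its hosts stood at 19.8, 17.5, 25.7, 15.8 and 24.4 CPM, and its colonies at 11.5, 8.86, 21.3, 4.98 and 13.1 CPM. The colony of animal 246 was above 3 hosts, while the other 4 colonies lay below every host. Its pairs ran from a log2 difference of -0.27 in animal 246 to -1.67 in animal 248, with a mean of -0.92 ± 0.50 (SD, n = 5).

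**Figure D1:**
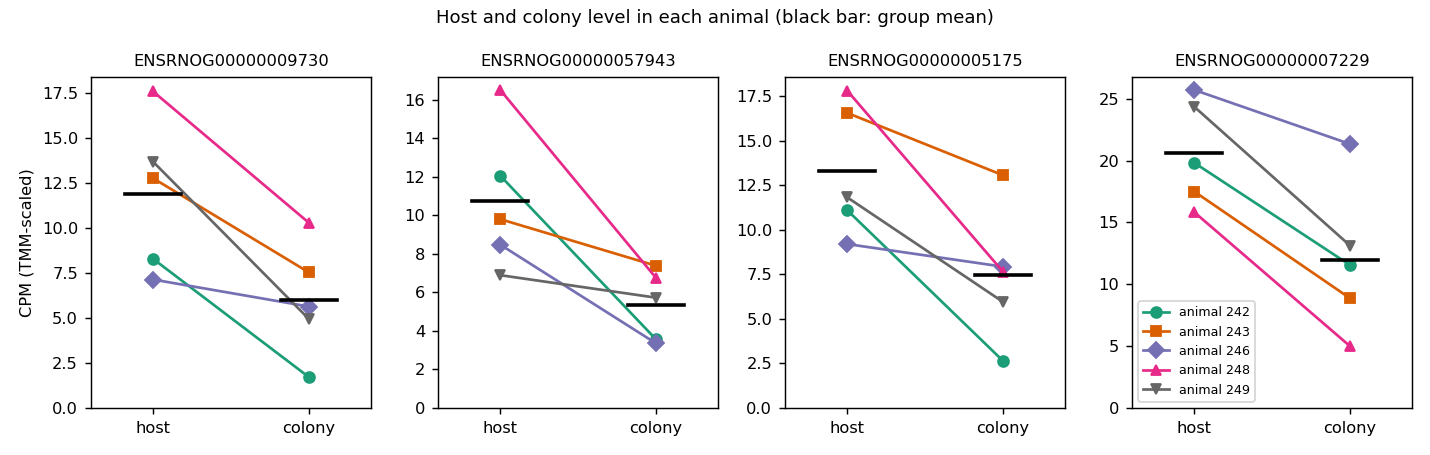
Level of each gene in CPM (TMM-scaled, vertical axes starting at 0) in the host and colony library of each animal, joined by a line, with black bars at the group means. Every line runs downward, and host and colony points overlap in range for each gene. For ENSRNOG00000005175 the line of animal 246 drops only from 9.20 to 7.93 CPM.

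The animal with the largest difference was not the same for all genes. Animal 242 had the lowest colony relative to its host for ENSRNOG00000009730, ENSRNOG00000057943 and ENSRNOG00000005175, whereas for ENSRNOG00000007229 it was animal 248. Animal 246 had the smallest difference for 3 of the 4, but its colony held only 39.5% of the host level of ENSRNOG00000057943. Among the 7922 genes with a host mean of at least 10 CPM, the median difference of log2(CPM + 1) between colony and host was -0.31, -0.14, 0.05, -0.17 and -0.30 in animals 242, 243, 246, 248 and 249. Over all genes tested, with no such cut on the host mean, the medians were 0.07, 0.03, -0.003, 0.10 and 0.12. The 4 genes were chosen for large falls on this contrast, so low percentiles on it follow from the choice. Set against the 7922 genes, ENSRNOG00000009730 lay between the 0.038 and 10.6 percentile in each animal, and ENSRNOG00000007229 between the 0.24 and 9.95 percentile. ENSRNOG00000005175 lay between the 0.05 percentile in animal 242 and the 20.4 percentile in animal 243, with 12.02 in animal 246. ENSRNOG00000057943 ranged from the 0.025 percentile in animal 246 through 15.5 in animal 243 to 59.2 in animal 249, so in animal 249 it was not among the lower genes. Without animal 242 the fitted log2 differences were -0.84, -0.81 and -0.68 for ENSRNOG00000009730, ENSRNOG00000057943 and ENSRNOG00000005175.

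The sign in every pair depended on how the libraries were scaled for 1 of the genes. TMM factors were 0.867 to 1.08 in hosts and 1.01 to 1.21 in colonies, and a larger factor lowers the scaled level. With library totals alone, ENSRNOG00000057943 was higher in the colony than in the host of animal 249, at 6.95 against 6.22 CPM (77 host and 103 colony counts, log2 0.16, 95% counting interval -0.28 to 0.61). The other 19 of the 20 pairs kept a lower colony. Fitted differences became -0.84, -0.75, -0.69 and -0.64 for ENSRNOG00000009730, ENSRNOG00000057943, ENSRNOG00000005175 and ENSRNOG00000007229, while the fitted median of all genes tested moved from 0.11 to 0.36. A change of scaling shifts all genes of a library alike, so the distance of any gene from that median could change little. Factors by relative log expression (RLE) left all 20 pairs lower in the colony.

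**Figure D2:**
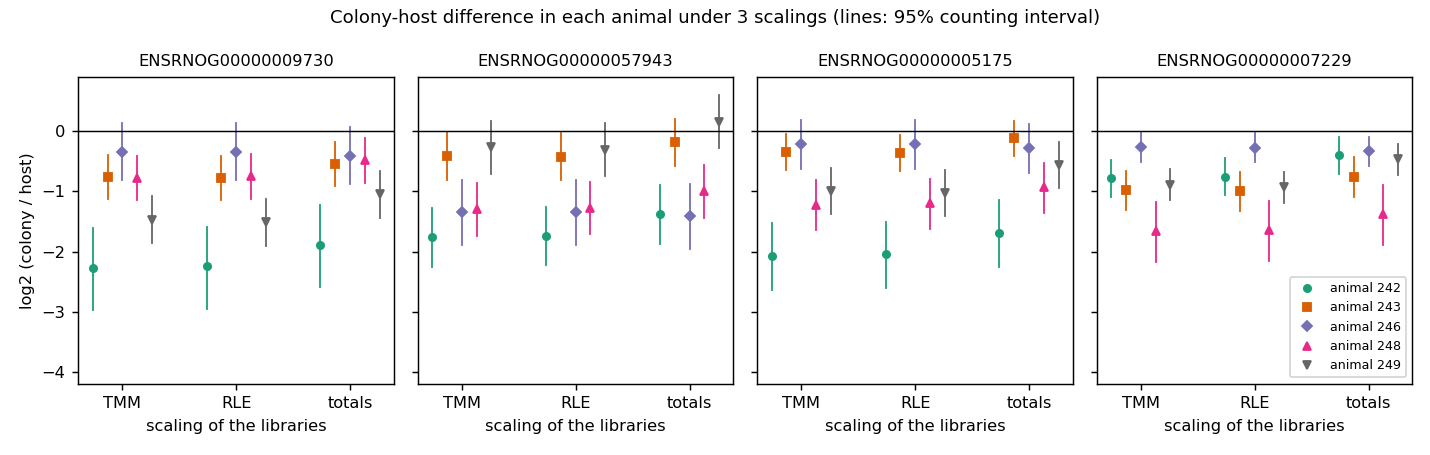
Log2 ratio of colony to host for each gene and animal with libraries scaled by TMM, by RLE or by library totals alone, with lines for the 95% counting interval. A single point lies above 0, ENSRNOG00000057943 in animal 249 with library totals, at 0.16.

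By size of the fitted difference, among the 1073 genes with a host mean of at least 10 CPM and a lower colony in all 5 pairs, the 4 genes held places 3, 6, 7 and 8. The other 4 features within the first 8 places each had 1 exon of 81 to 300 nt, in contrast to the spliced genes described here. The next in line after ENSRNOG00000007229 was also a feature of 1 exon and 72 nt, at a log2 difference of -0.88 (SE 0.48). The next spliced gene, with 9 exons on chromosome 2 from 53116101 to 53140637, stood at -0.86 (SE 0.13), from 166.7 CPM in hosts and 93.3 CPM in colonies. No gap in size therefore sets the 4 apart from the genes that follow.

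Genes next to the 4 on their chromosomes were not part of the choice, so that the 4 stand lower than their neighbours follows from how they were chosen. Among the 2 nearest tested features on either side of each, 0 of 16 neighbours passed an adjusted p of 0.05 in the edgeR test between colony and host, where 1.17% of all genes did. At an unadjusted edgeR p under 0.05 the count was also 0, where 4235 of all 22303 genes had one. DESeq2 called 0, where it called 556 of all genes. By limma-voom 1 was called (higher in colonies), where it called 3274 of all genes. The log2 differences of the 16 ran from -0.27 to 0.99, with 6 below 0 and 10 above. In all 5 pairs 2 were lower, where 5.68% of all genes were, and these 2 lie on either side of ENSRNOG00000057943. The closest neighbour of all starts 632 nt beyond ENSRNOG00000005175 on the opposite strand and stood at 0.725 CPM in hosts and 1.17 CPM in colonies, a log2 difference of 0.99 (SE 0.87). Next to ENSRNOG00000057943, the gene 9633 nt downstream in the order of coordinates stood at 33.6 CPM in hosts and 28.6 CPM in colonies, and was lower in all 5 colonies by a fitted log2 of -0.22 (SE 0.14). Around ENSRNOG00000007229, the gene 7880 nt before it stood at 76.1 and 74.4 CPM. The nearest tested features to ENSRNOG00000009730 lie 13278 nt before it, at 0.966 CPM in hosts and 1.62 CPM in colonies, and 1057006 nt after it, at 9.29 and 7.99 CPM.

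**Figure D3:**
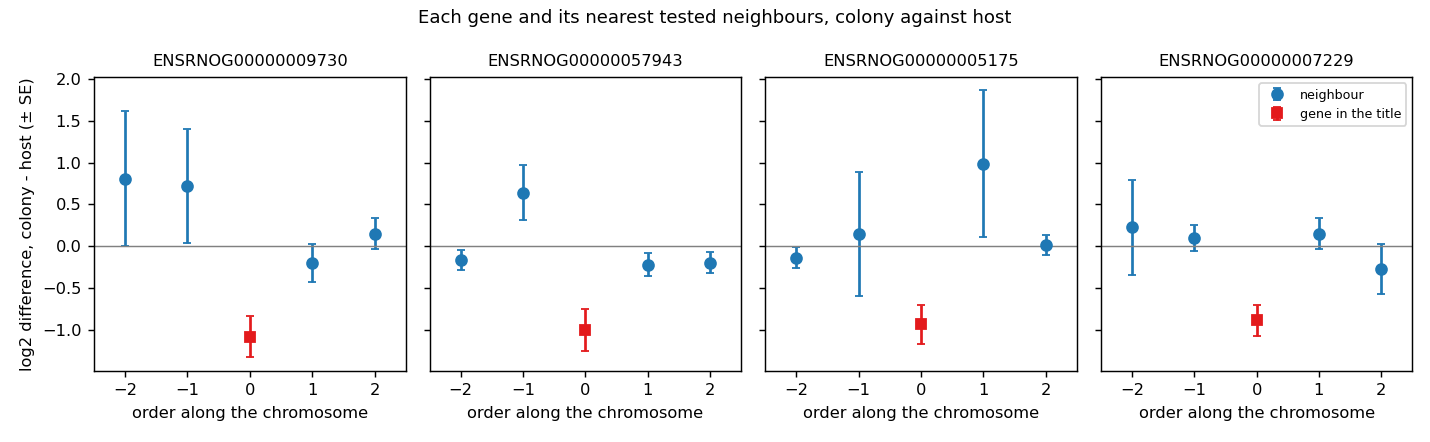
Fitted log2 difference between colony and host (± SE) for each of the 4 genes (red square, order 0) and the 2 nearest tested features on either side (blue circles). The 4 genes lie between -1.08 and -0.89, and the 16 neighbours between -0.27 and 0.99.

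Before transplantation the 4 genes differed in pattern. ENSRNOG00000007229 was nearly silent in every fetal sort, and ENSRNOG00000005175 was lower in every fetal sort but clearly present. ENSRNOG00000009730 and ENSRNOG00000057943 overlapped between adult, LAP+ and LAP+/OC2- cells and parted in LAP+/OC2+ cells. There the first was nearly absent and the second had its highest mean on TMM-scaled CPM, though not per length of exon (below). In LAP+ against adult cells, 2 of the 4 were called lower and 0 higher (edgeR adjusted p under 0.05), where 60.3% of the 13818 genes tested were called in either direction, 28.5% lower and 31.7% higher. LAP+/OC2- cells gave the same 2 calls against adult cells, with 59.3% of all genes called, 28.4% lower and 30.9% higher. In LAP+/OC2+ against adult cells all 4 were called, 3 lower and 1 higher, with 77.5% of all genes called, 38.6% lower and 38.9% higher. The LAP+/OC2+ libraries also had the highest mitochondrial shares, from 38.9 to 78.6%, and fewest nuclear counts, whose part in the differences of that sort was not tested. The 3 comparisons share the 4 adult libraries. The members' counts lie near the background.

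ENSRNOG00000007229 stood at 66.4, 25.5, 28.1 and 19.1 CPM in adult libraries 1 to 4. In LAP+ libraries 1 to 4 it had 4, 2, 2 and 10 counts, or 0.205, 0.088, 0.106 and 0.501 CPM. LAP+/OC2- libraries 1, 3, 4 and 5 had 0.328, 0.507, 0.337 and 0.346 CPM, and LAP+/OC2+ libraries 1 to 4 had 0.258, 0.475, 0.489 and 0.920 CPM. Every adult library was above every fetal library, with adult library 1 well above the other 3. Against adult cells the fitted log2 differences were -7.23 (SE 0.49, edgeR adjusted p = 3.2e-09) in LAP+, -6.48 (SE 0.46, adjusted p = 6.1e-09) in LAP+/OC2- and -5.85 (SE 0.50, adjusted p = 1.4e-08) in LAP+/OC2+ cells, lower in 4 of 4 libraries each. Summed over libraries, adult cells held 153 times the LAP+ level (95% counting interval 96.2 to 258). The LAP+ value leaned on library 4, since without it the log2 difference was -7.96. Differences among the fetal sorts did not pass the test, and they rest on 14 to 31 counts per sort. LAP+/OC2+ cells were above LAP+ cells by a log2 of 1.39 (95% interval -0.15 to 2.92, edgeR adjusted p = 0.10). That comparison passed without adult library 1 (edgeR log2 1.35, adjusted p = 0.038), without LAP+ library 4 (edgeR log2 2.10, adjusted p = 0.025) and with DESeq2 (log2 1.49, adjusted p = 0.038).

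ENSRNOG00000005175 was the steadiest of the 4 between fetal replicates. Adult libraries 1 to 4 stood at 27.7, 32.8, 18.98 and 24.1 CPM. LAP+ libraries lay between 7.72 and 8.46 CPM and LAP+/OC2- libraries between 7.14 and 8.35 CPM, a coefficient of variation of 4.19% and 7.12%. LAP+/OC2+ libraries 1 to 4 had 15.99, 16.9, 15.3 and 11.5 CPM, between the other fetal sorts and adult cells with no overlap on either side. The gene fell against adult cells in all sorts, with log2 differences of -1.67 in LAP+ (SE 0.16, edgeR adjusted p = 2.4e-07), -1.74 in LAP+/OC2- (SE 0.17, adjusted p = 1.5e-07) and -0.80 in LAP+/OC2+ cells (SE 0.17, adjusted p = 3.0e-04). Every fetal library was below every adult one. LAP+/OC2+ cells were higher than LAP+/OC2- cells by 0.93 (SE 0.17, edgeR adjusted p = 1.2e-04) and than LAP+ cells by 0.86 (SE 0.17, adjusted p = 2.5e-04), but with library totals alone both differences turned, to -0.0074 and -0.13, and did not pass. TMM factors of the LAP+/OC2+ libraries ran from 0.432 to 1.05. With mitochondrial features left out before scaling, the 2 differences were 0.93 and 0.86. That setting was still scaled by TMM, which trims extreme features, so it could change little. The part of the mitochondrial share in these differences was not tested.

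ENSRNOG00000009730 was scarce in sorted cells and nearly absent from 1 sort. Adult libraries 1 to 4 had 2.25, 1.64, 0.659 and 1.35 CPM, and LAP+ libraries 2.20, 2.03, 1.01 and 1.05 CPM. LAP+/OC2- libraries 1, 3, 4 and 5 had 2.16, 3.69, 1.24 and 1.53 CPM. The 4 LAP+/OC2+ libraries together held 1 count, in library 2. At the rates of adult, LAP+ and LAP+/OC2- cells, libraries of that scaled size would hold 33.2, 36.5 and 50.6 counts. Summed over libraries, adult cells held 33.2 times the LAP+/OC2+ level (95% counting interval 5.81 to 1329), LAP+ cells 36.5 times (6.43 to 1452) and LAP+/OC2- cells 50.6 times (8.97 to 2010). The gene fell in LAP+/OC2+ cells against adult (edgeR log2 -4.82, SE 0.95, adjusted p = 1.9e-04), LAP+ (log2 -4.92, SE 0.93, adjusted p = 1.9e-04) and LAP+/OC2- cells (log2 -5.37, SE 0.90, adjusted p = 5.5e-05). These fitted sizes hang on the 1 count. Without library 2 no count was left, and adult, LAP+ and LAP+/OC2- levels were 9.05-fold, 9.93-fold and 13.8-fold higher than 3 counts over the remaining 3 libraries. Those values leave out the only library with a count and the counting error of the other groups. With that library the lower limits were 5.81, 6.43 and 8.97. Neither other sort was called different from adult cells, with log2 differences of 0.10 for LAP+ (95% interval -0.82 to 1.03) and 0.56 for LAP+/OC2- (95% interval -0.36 to 1.47).

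ENSRNOG00000057943 stood at 3.45, 2.42, 1.98 and 3.65 CPM in adult libraries 1 to 4, and at 1.38, 5.16, 2.172 and 2.05 CPM in LAP+ libraries. LAP+/OC2- libraries 1, 3, 4 and 5 had 4.64, 2.58, 3.49 and 2.67 CPM. All of these groups overlap, and the log2 difference from adult was -0.08 in LAP+ (95% interval -0.94 to 0.77) and 0.22 in LAP+/OC2- cells (95% interval -0.63 to 1.07). LAP+/OC2+ libraries 1 to 4 had 2.84, 3.80, 5.71 and 9.43 CPM and mitochondrial shares of 78.6, 73.7, 57.6 and 38.9%. The part of that share in the level was not tested. The gene rose in LAP+/OC2+ cells against adult (edgeR log2 0.97, SE 0.42, adjusted p = 0.042) and LAP+ cells (log2 1.06, SE 0.41, adjusted p = 0.031), although the libraries overlapped in both comparisons.

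Both calls of ENSRNOG00000057943 depended on the setting. They held with DESeq2 (adjusted p = 0.020 and 0.0097), limma-voom (adjusted p = 0.027 and 0.0040), edgeR on RLE factors (adjusted p = 0.029 and 0.018) and the stricter filter (edgeR adjusted p = 0.036 and 0.027), against adult and LAP+ cells in that order, and with mitochondrial features left out. With the replicate number as a block the edgeR adjusted p was 0.091 and 0.063, without a low-count filter 0.088 and 0.067, and with library totals alone 0.27 and 0.70. The call against adult cells was lost without adult library 1 (edgeR adjusted p = 0.055), 2 (0.096) or 3 (0.12), LAP+/OC2+ library 3 (0.077) or 4 (0.26), and LAP+/OC2- library 4 (0.053) or 5 (0.0503). The call against LAP+ cells was lost without LAP+/OC2+ library 3 (edgeR adjusted p = 0.060) or 4 (0.21), and LAP+ library 1 (0.088), 3 (0.075) or 4 (0.078). Against LAP+/OC2- cells the log2 difference was 0.75 (95% interval -0.11 to 1.62, edgeR adjusted p = 0.11), and limma-voom gave 0.85 (adjusted p = 0.019).

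**Figure D4:**
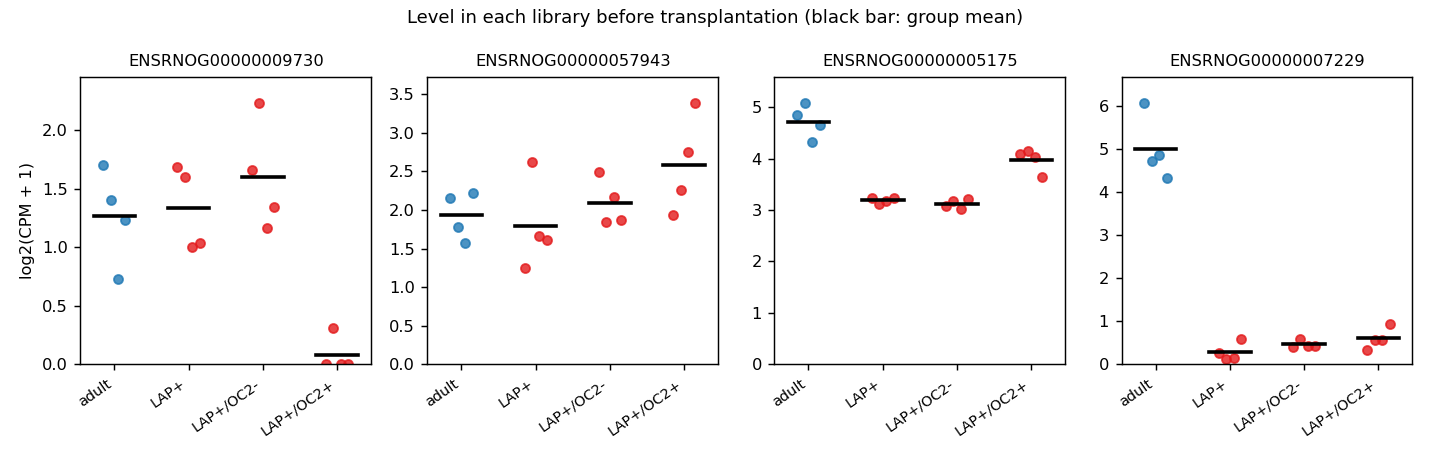
Level of each gene as log2(CPM + 1) in each library before transplantation (adult in blue, fetal sorts in red, 4 libraries each), with black bars at the group means. ENSRNOG00000007229 is under 1 in all 12 fetal libraries and far above in adult ones, ENSRNOG00000009730 is lowest in the 4 LAP+/OC2+ libraries, and ENSRNOG00000057943 overlaps in every pair of groups.

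Among the fetal sorts, the LAP+/OC2+ cells were the ones that differed. Against LAP+/OC2- cells 2 of the 4 genes were called, ENSRNOG00000009730 lower and ENSRNOG00000005175 higher, where 67.5% of all genes were called, 30.8% higher and 36.6% lower. Against LAP+ cells 3 of the 4 were called, ENSRNOG00000009730 lower and ENSRNOG00000057943 and ENSRNOG00000005175 higher, with 67.8% of all genes called, 32% higher and 35.9% lower. Between LAP+/OC2- and LAP+ cells 0 of the 4 were called by edgeR, DESeq2 or limma-voom, and 0 had an unadjusted edgeR p under 0.05, where 0.391% of all genes were called. The interval of that difference was narrow for ENSRNOG00000005175, from -0.41 to 0.28, and wide for ENSRNOG00000007229, from -0.53 to 2.03.

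**Figure D5:**
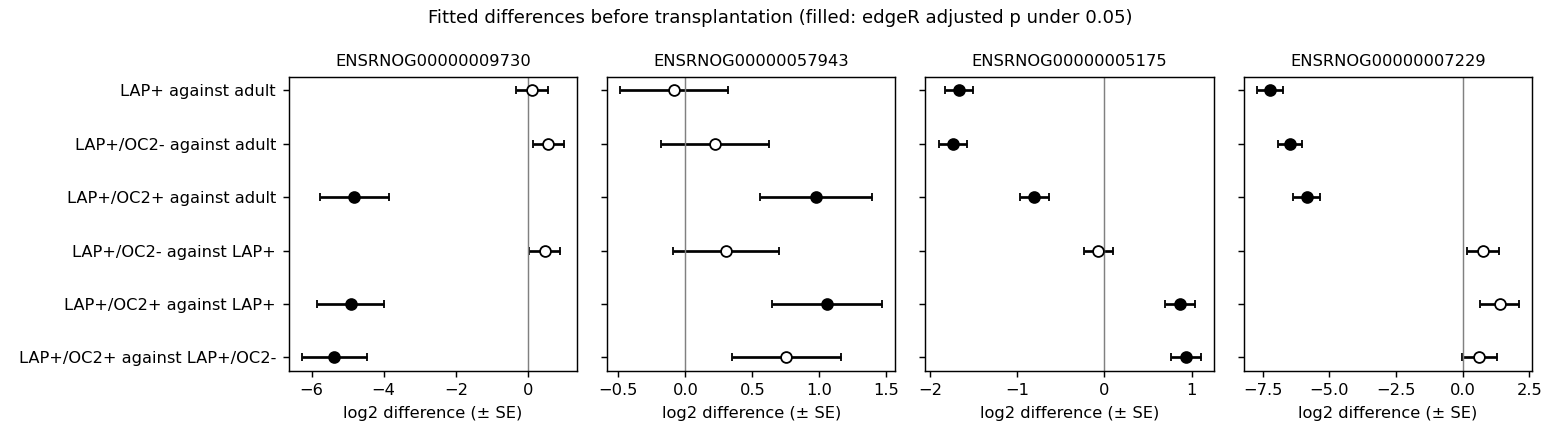
Fitted log2 difference (± SE) of each gene in the 6 comparisons between cells before transplantation, filled where the edgeR adjusted p was under 0.05. The horizontal scales differ between panels, and the largest difference, -7.23, is that of ENSRNOG00000007229 in LAP+ against adult cells.

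Each gene's log2 differences at both stages are given side by side, with no test across them, since the choice of the genes rests on the colony value. ENSRNOG00000007229 had -7.23, -6.48 and -5.85 in LAP+, LAP+/OC2- and LAP+/OC2+ against adult cells, and -0.89 in colony against host. ENSRNOG00000005175 had -1.67, -1.74 and -0.80, and -0.93 in colony against host. ENSRNOG00000057943 had -0.08, 0.22 and 0.97, and -1.001 in colony against host. ENSRNOG00000009730 had 0.10, 0.56 and -4.82, and -1.08 in colony against host. Thus 2 of the 4 genes were called lower in all fetal sorts against adult cells, and the other 2 were not. Singly, the comparisons with LAP+, LAP+/OC2- and LAP+/OC2+ called 28.5%, 28.4% and 38.6% of all genes lower. They share the adult libraries, and the share of all genes lower in all of them was not computed.

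Per length of exon the order of the genes changed with the cells. Levels between genes are given as TPM, in which counts are divided by exon length and rescaled to 1 total per library that includes mitochondrial features in its total. In adult cells ENSRNOG00000007229 led with 48.3 ± 29.5 TPM (SD, n = 4), followed by ENSRNOG00000005175 with 14.4 ± 3.57, ENSRNOG00000057943 with 7.04 ± 2.21 and ENSRNOG00000009730 with 0.814 ± 0.367 TPM (SD, n = 4 each), in that order in all 4 libraries. In LAP+/OC2- cells, also in all 4 libraries, ENSRNOG00000057943 came first with 9.26 ± 3.28 TPM and ENSRNOG00000007229 last with 0.601 ± 0.160 TPM (SD, n = 4 each). LAP+ cells had the same order of means, led by ENSRNOG00000057943 with 8.31 ± 6.09 TPM, but only in 2 of 4 libraries. In LAP+/OC2+ cells ENSRNOG00000057943 with 6.81 ± 6.51 TPM was not separated from ENSRNOG00000005175 with 3.405 ± 1.07 TPM (SD, n = 4 each). That mean TPM of ENSRNOG00000057943 was its lowest among adult cells and fetal sorts, whereas its mean CPM was highest there. Hosts and colonies shared 1 order of means, with 35.4 ± 11.5 TPM of ENSRNOG00000007229, 30.8 ± 8.17 of ENSRNOG00000057943, 8.68 ± 1.56 of ENSRNOG00000005175 and 7.58 ± 1.82 of ENSRNOG00000009730 in hosts (SD, n = 5 each). The first 2 lay within their spread of each other, as did the last 2.

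Some genes ran closely with each of the 4 over the 16 libraries before transplantation, on log2(CPM + 1) among 7394 genes averaging 10 CPM or more. These correlations describe libraries that fall into groups and share depth and scaling. ENSRNOG00000007229 ran most like ENSRNOG00000047967 (r = 0.99, n = 16) and ENSRNOG00000039079 (r = 0.98), both abundant in adult and under 1 CPM in LAP+ cells, and 349 genes had an r over 0.9 with it. ENSRNOG00000005175 ran most like ENSRNOG00000038999 (r = 0.98) and ENSRNOG00000017619 (r = 0.96). Nearest to ENSRNOG00000009730 were ENSRNOG00000026902 (r = 0.96) and ENSRNOG00000002461 (r = 0.95), which were also lowest in LAP+/OC2+ cells, at 8.44 and 3.60 CPM, though not near 0. ENSRNOG00000057943 ran with ENSRNOG00000060154 (r = 0.95) and ENSRNOG00000057464 (r = 0.94).

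The genes most like the 4 before transplantation are given with their colony and host difference as a description. Their fitted log2 differences were -0.28 and -0.30 (SE 0.13 and 0.12) for the pair nearest to ENSRNOG00000007229, and -0.28 and -0.23 (SE 0.13 and 0.14) for that of ENSRNOG00000005175. The pair nearest to ENSRNOG00000009730 had -0.0031 and -0.24 (SE 0.12 each), and that of ENSRNOG00000057943 had 0.043 and 0.0014 (SE 0.12 each). The 8 were not chosen by colony and host levels, unlike the 4 genes. For scale, genes with a host mean of at least 10 CPM had median differences of log2(CPM + 1) from -0.31 in animal 242 to 0.05 in animal 246. By Spearman rho the nearest pairs were others for 2 genes. They stood at -0.34 and -0.11 for ENSRNOG00000007229, and at -0.29 and -0.22 for ENSRNOG00000005175.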

How the data were processed

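Each deposited file holds a raw count for every feature beside its exon coordinates and length, per the file headers. The submitters' processing notes list STAR 2.5.2b, Trimmomatic 0.36, bcl2fastq 2.17, Subread 1.5.2 and its featureCounts. Without a named genome build, annotation release or strand setting (not given in the sources used here), reads of antisense or near-identical genes cannot be told apart. Per the labels' protocols, sorted cells went into NEBNext Ultra libraries and captured tissue into SMARTer Stranded Pico libraries.

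Groups and animal numbers come from the sample titles. The test of counts was that of edgeR 4.0.16 in R 4.3.3 (filterByExpr on the design, TMM, robust quasi-likelihood F test, Benjamini-Hochberg adjustment over all genes tested, threshold 0.05), with all 16 libraries before transplantation in 1 fit and the 10 captured ones in another with the animal as a block. The p-values set a difference against the spread between these samples. The labels call them biological replicates. Alternatives used DESeq2 1.42.0, limma 3.58.1, other scalings and filters, and fits without each library. Same-numbered hosts and colonies come from 1 animal per the labels (their deviations correlated between -0.22 and 0.44, over 0.1 in 3 of 5). All 44 pairs of replicates differed by more than sampling noise, with a chi-square of at least 4.91 per degree of freedom.

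Counting intervals are exact binomial ones at 95% and cover counting error only. The limit that a count of 0 allows is 3 counts. Intervals of fitted differences use the fit's t distribution. The tests were checked on simulated data with the same spread for all genes and no animal effects, unlike these data. That check asked for recovery of large differences only and set no limit on false calls. The members, lists and rules were chosen with earlier results of these data known. The rule for named genes takes the 4 genes, the 2 nearest tested features on either side of each, the 2 genes most like each before transplantation, and those next in size of fall. Its lists by gene symbol could not be applied. No sequence is printed, as no identifier matched the sequence tables.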

Additional observations from a re-analysis of the deposited data

Results flagged for a closer look

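Among the 28 sets of replicate values examined for a single distant sample (the levels of the 4 genes in 6 groups, and their paired differences), 2 held one, where chance alone marks about 1 set in 20. ENSRNOG00000009730 stood at 0.237 CPM in LAP+/OC2+ library 2, which is a single count, and at 0 in the other 3 libraries of that sort. A set with counts in 1 library and 0 in the rest is always marked, so the rate of 1 in 20 does not hold for it. ENSRNOG00000007229 stood at 0.507 CPM in LAP+/OC2- library 3, from 11 counts, against 0.328 to 0.346 CPM in the other 3 libraries, which had 6 or 7 counts.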

How the results depend on the processing

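Of 40 values of the 4 genes between colony and host under other tools, scalings, filters or without the block, and 20 without 1 animal, 0 turned or moved by more than the SD of the pairs. The rule required 1 sign in every pair, so leaving out 1 animal could hardly turn a value or move it that far. That SD, 0.50 to 0.76, was also large beside the fitted differences of -0.89 to -1.08, so these counts show little about stability. Counts of all genes called moved with the setting. Between colony and host, 262 became 751 without a low-count filter, 6 with the stricter filter, 6 with the filter on the 2 groups, 556 with DESeq2, 3274 with limma-voom and 0 without the replicate block, both on its own 18632 genes (3007 at an unadjusted p under 0.05) and on the same 22303 genes (3483), and leaving out 1 animal gave 0 to 2683. Between LAP+/OC2- and LAP+ cells, 54 became 208 with DESeq2 and 171 with limma-voom, and 44 to 98 without 1 library. With the cause not tested, these values of the genes changed side. ENSRNOG00000057943 in LAP+/OC2+ cells lost its calls against adult and LAP+ cells without a low-count filter (log2 0.83 and 0.91), with library totals alone (0.67 and 0.25) and with the replicate block (0.86 and 1.01), and ran from 0.55 to 1.13 and from 0.63 to 1.58 without 1 library. Its difference from LAP+/OC2- cells passed with limma-voom (0.85). ENSRNOG00000007229 passed in LAP+/OC2+ against LAP+ cells with DESeq2 (1.49) and ran from 0.89 to 2.10 without 1 library. ENSRNOG00000005175 turned with library totals alone in LAP+/OC2+ against LAP+/OC2- (-0.0074) and LAP+ cells (-0.13). Library totals move the median of all genes to -1.04, in place of -0.18, for LAP+/OC2+ against LAP+/OC2- cells. Against LAP+ cells the median is -1.02 in place of -0.10. In that order, library totals give 1764 higher and 7592 lower genes (4261 and 5062 with TMM) and 1608 and 7565 (4417 and 4956). Against adult cells they give 5578 and 2025 for LAP+ (4387 and 3943), 5171 and 2131 for LAP+/OC2- (4266 and 3926) and 3868 and 6065 for LAP+/OC2+ (5369 and 5338), and 214 and 11 between colony and host (126 and 136). The replicate block before transplantation changed no other call of the 4 genes. Numbers there are not said to mark shared animals, and same-numbered libraries correlated between -0.51 and 0.21 (over 0.1 in 3 of 21). The genes most like ENSRNOG00000005175 and ENSRNOG00000007229 were others by Spearman rho (highest 0.96 and 0.87). Depth limits the fetal values of ENSRNOG00000007229 and the LAP+/OC2+ value of ENSRNOG00000009730 most.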
